A study of Homo sapiens with 8 samples.

Results

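Ribosome biogenesis factors are the proteins that modify, fold, cut and package ribosomal RNA on its way from the nucleolus to the cytoplasm. The group described here holds 40 genes, picked by symbol from the 61552 rows of the deposited count and FPKM tables, and all 40 were found in 1 row each and had enough reads to be tested among 15923 genes. They were measured by RNA-seq in MDA-MB-231, a human triple-negative breast cancer cell line, and in MDA231-LM2 (LM2 from here on), its lung-metastatic derivative. Cells of either line carried either a control short hairpin RNA or a hairpin against TAF7, and a single hairpin (number 3 in the labels) was used in both lines. TAF7 encodes a subunit of TFIID, the general factor that places RNA polymerase II at promoters. The 4 groups were the MDA-MB-231 control, MDA-MB-231 shTAF7, the LM2 control and LM2 shTAF7, all grown in the same serum-supplemented medium. Each held 2 libraries, numbered 2 and 3, and the stated aim was to find genes that TAF7 regulates. Nothing in the labels tells whether the 2 libraries of 1 group are separate cultures or clones, so a p-value here reflects no more than library-to-library spread, which may be technical.

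A ribosome begins in the nucleolus, where RNA polymerase I transcribes a long precursor of ribosomal RNA. Small nucleolar ribonucleoproteins (snoRNPs) of the box C/D kind methylate riboses in it and those of the box H/ACA kind convert uridines to pseudouridine. The small-subunit processome folds and cleaves the part that becomes the 40S subunit, a separate set of factors matures the 60S subunit, and ATP-dependent RNA helicases of the DEAD-box family remodel both. Tumour cells commonly raise the output of this pathway, and the transcription factor MYC, which binds the E-box CACGTG, is a well-known activator of its genes.

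As a check of the labels, TAF7 itself had 179 and 185 CPM (counts scaled to library size, with TMM factors) in the parental MDA-MB-231 control and 108 and 105 with the hairpin. In LM2 it had 195 and 197 CPM in the control and 142 and 148 with the hairpin, so the groups of neither line overlapped. The targeted transcript fell to 58.5% of control in MDA-MB-231 (edgeR adjusted p = 4.0e-12). In LM2 74.2% was left (edgeR adjusted p = 8.4e-07). Total counts per library ran from 17217776 to 20292291, and 1 read was worth 0.0488 to 0.0583 CPM. The LM2 control libraries had reads in 24490 and 24762 genes, against 22296 to 23434 in the other 6 libraries. All 7 mesenchymal-like markers of the line had reads in every group, from 948 to 2354 CPM for VIM down to 40.9 to 115 CPM for ZEB1, the lowest. Among luminal or epithelial markers, ESR1, PGR and CDH1 had at most 5 counts. The others of that list were detected in every library, with 576 to 1607 counts for KRT19, 93 to 194 for EPCAM, 80 to 170 for GATA3 and 31 to 192 for FOXA1. Leukocyte, endothelial and fibroblast markers summed to between 1.73 and 7.58 CPM over 11 genes, with PECAM1 the largest at up to 6.82 CPM. Below, log2 fold changes carry the standard error of the fit (n = 2 libraries per group). A gene is said to rise or fall where edgeR's quasi-likelihood test gave a Benjamini-Hochberg adjusted p under 0.05 over all 15923 genes.

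Levels of different genes were compared per transcript length, as the deposited FPKM (fragments per kilobase of transcript, scaled to library size). In the MDA-MB-231 control, NPM1, the nucleolar chaperone nucleophosmin, was the most abundant of the 40 at 332 ± 2.59 FPKM (SD, n = 2). It was followed by the RNA-binding protein nucleolin (NCL, 233 ± 1.05 FPKM), the small H/ACA protein NOP10 (228 ± 4.63 FPKM) and the C/D methyltransferase fibrillarin (FBL, 146 ± 0.156 FPKM). The libraries of these 4 neighbours in the order did not overlap. The 14 processome and 40S factors ran from RCL1 at 6.58 ± 0.0636 to WDR43 at 47.4 ± 0.163 FPKM. Many neighbours in this range could not be put in order, such as NHP2, PES1, TSR1, MRTO4 and DDX56, whose successive FPKM values overlapped. NPM1 was also the most abundant in the LM2 control (537 ± 34.0 FPKM), while LYAR, a nucleolar zinc-finger protein, went from rank 6 of 40 in the MDA-MB-231 control to rank 20 in the LM2 control.

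**Figure D1:**
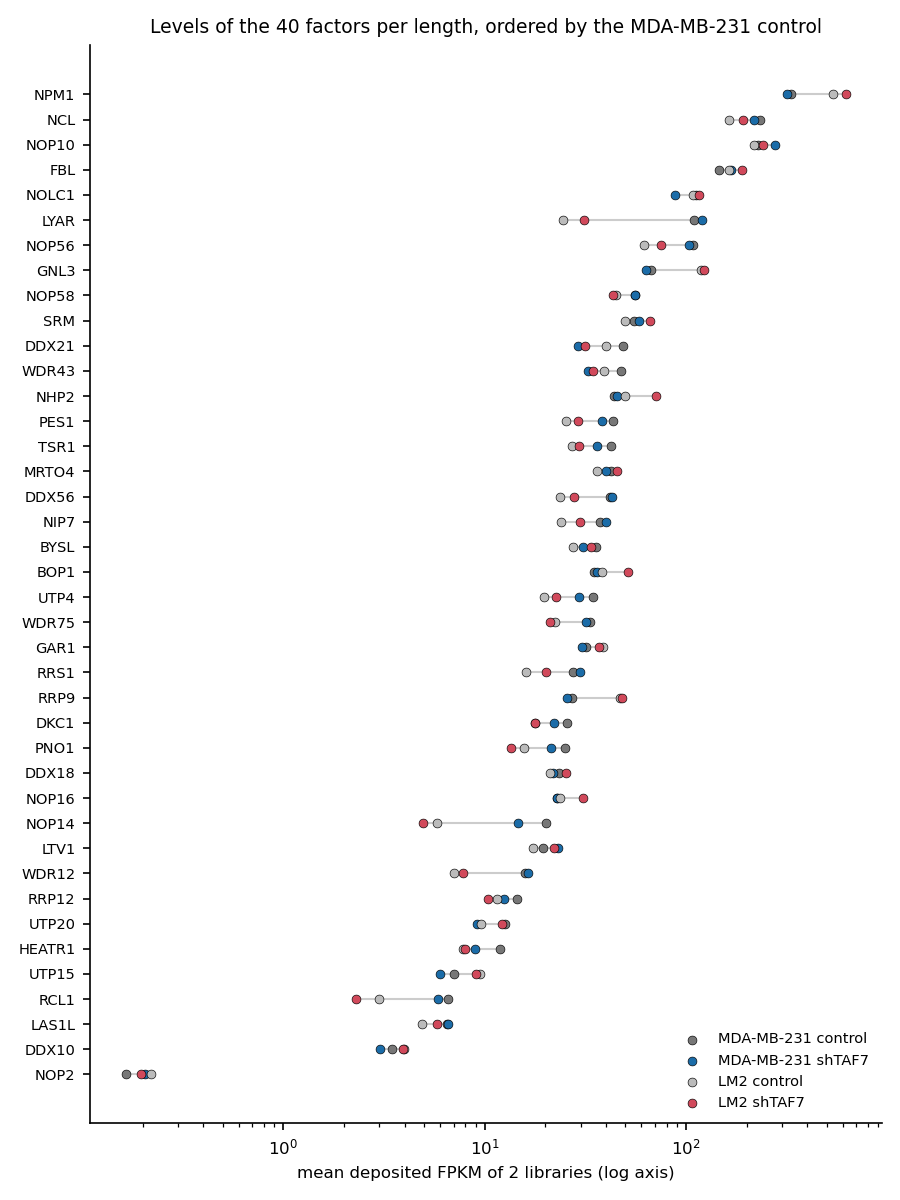
Mean deposited FPKM (log axis) of the 40 ribosome biogenesis factors in the 4 groups, 1 row per gene ordered by the MDA-MB-231 control and 1 point per group (n = 2 libraries). NPM1 lies at the top in every group, and LYAR, NOP14, WDR12 and RCL1 show LM2 points far to the left of the MDA-MB-231 points.

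NOP2, which methylates a cytosine of large-subunit RNA, lay at the bottom with 11 to 21 counts per library and 0.165 ± 0.0636 FPKM in the MDA-MB-231 control. In GENCODE release 29, 54.4% of its exon bases are shared with AC006064.6, a gene model on the same strand that was listed at 0 in all libraries. Whether reads of NOP2 went uncounted for that reason was not tested, and its level is uncertain. The strand setting of the counting is not given in the sources used here, so reads from overlapping genes on opposite strands cannot be told apart. This touches NOP14 (17.1% of exon bases shared with NOP14-AS1, which had 176 to 549 counts), HEATR1 (23.2% with LGALS8), NHP2 (27.4% with RMND5B), TSR1 (20.7% with SRR), NIP7 (20.2% with COG8) and NOP16 (12.0% with ARL10 and 7.93% with HIGD2A, which had 240 to 584 counts). LGALS8 had 1316 to 1940 counts, beside 1130 to 2060 for HEATR1. RMND5B had 455 to 674 counts, beside 1031 to 2232 for NHP2. SRR had 55 to 154 counts, COG8 68 to 115 and ARL10 1 to 9. LTV1 shares 27.7% of its exon bases with a same-strand model listed at 0. NPM1 has 49 pseudogene rows, which held 1.66% to 1.94% of the summed reads of NPM1 and its pseudogenes.

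Upstream sequence was read for the members whose transcripts moved most after TAF7 knockdown, because TFIID acts at the start of genes. These were DDX21, which fell furthest in MDA-MB-231 and was the member that fell in LM2, NOP10, which rose furthest in MDA-MB-231, and NHP2, which rose furthest in LM2. UTP20 was added after its values were seen, since its knockdown effect differed most between the lines. RefSeq sequence (GRCh38.p14) is given 5′ to 3′ on the gene's strand, up to 150 bases outside all GENCODE exons, with capitals marking the E-box CACGTG or the ETS-type motif CCGGAAGT. Exon bases next to the start were therefore left out, 42 for DDX21, 41 for NOP10, 82 for NHP2 and 0 for UTP20. The windows are chr10:68955978-68956127 on the plus strand for DDX21, chr15:34343178-34343314 on the minus strand for NOP10, chr5:178153968-178154117 on the minus strand for NHP2 and chr12:101279955-101280104 on the plus strand for UTP20.
DDX21: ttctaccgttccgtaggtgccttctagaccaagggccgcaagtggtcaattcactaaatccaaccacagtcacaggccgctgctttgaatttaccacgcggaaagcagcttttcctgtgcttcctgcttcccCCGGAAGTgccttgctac
NOP10: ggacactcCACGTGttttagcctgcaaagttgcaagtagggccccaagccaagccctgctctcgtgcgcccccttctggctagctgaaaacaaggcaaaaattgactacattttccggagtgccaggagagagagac
NHP2: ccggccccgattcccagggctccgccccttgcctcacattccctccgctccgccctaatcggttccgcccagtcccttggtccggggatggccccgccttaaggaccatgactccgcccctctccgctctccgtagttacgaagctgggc
UTP20: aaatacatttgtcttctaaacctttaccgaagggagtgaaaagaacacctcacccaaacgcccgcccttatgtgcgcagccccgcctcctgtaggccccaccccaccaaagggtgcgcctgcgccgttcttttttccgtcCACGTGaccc
The DDX21 window holds the ETS-type motif 60 bases before the first of its 2 RefSeq starts, and UTP20 has an E-box beginning 10 bases before its start. DDX21 also has an E-box 31 bases before its second start, outside the printed bases. NOP10 has an E-box 170 bases before its start and, outside the printed bases, another 11 bases before it and the ETS-type motif on the other strand 43 bases before it. NHP2 has none of the motifs searched.

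The search covered 4 motifs on both strands in the 250 bases before each RefSeq start: the E-box CACGTG, the TATA-box core TATAAA, the ETS-type motif CCGGAAGT and the palindrome CTCGCGAG. Of the 40 members, 34 had an entry. An E-box was found for 6 of 34 (17.6%: NOP10, DDX21, UTP4, UTP20, LYAR and SRM), against 7.73% of 27305 genes. CCGGAAGT was found for 7 of 34 (20.6%: GAR1, NOP10, DDX21, DDX56, UTP4, LTV1 and LAS1L), against 4.13% of those genes, and CTCGCGAG for NPM1 and NOP14 (5.88% against 1.05%). TATAAA was found for UTP20 and LTV1 (5.88% against 13.0%). The 27305 genes are all those with an entry, more than the 15923 tested, and were not matched to the members in gene type or level. No match in a member overlapped another match, and a match is a description of sequence, not of binding. Members with an E-box moved in unlike directions in MDA-MB-231, from DDX21 at -0.72 and UTP20 at -0.45 to NOP10 at 0.29 on the log2 scale. In LM2 DDX21 fell (-0.22), while SRM (0.54), UTP20 (0.48), LYAR (0.48), UTP4 (0.34) and NOP10 (0.28) rose, as did 62.5% of all 40 members. The part of the E-box in these changes was not tested.

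In parental MDA-MB-231 cells, TAF7 knockdown went with lower levels of small-subunit processome genes and of the helicase DDX21, while 60S factors were not called. Of the 40 members, 12 fell (30.0%, against 12.9% of all genes tested), 3 rose (7.50%, against 12.6%) and 25 were not called, and the median log2 fold change was -0.06 (all genes 0.01). Of 14 small-subunit processome and 40S factors, 9 fell and LTV1 rose, with a median of -0.22. Of 10 60S factors, 0 were called by edgeR and 0 by DESeq2, with 1 of them, PES1, lower at an unadjusted p under 0.05. PES1 was called lower in 5 of 15 alternatives, and WDR12 higher with offsets for GC content and length. The 7 luminal or epithelial markers summed to 91.0 to 94.6 CPM in these knockdown libraries, against 69.8 to 72.8 in their controls, and the 7 mesenchymal-like ones to 4045 to 4108 against 4086 to 4160. Their part in the members' levels was not tested. In such bulk libraries, a change in the RNA of each cell and a change in the mix of cells cannot be told apart.

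DDX21, a nucleolar helicase that also acts in transcription, showed the largest fall. It stood at 439 and 449.5 CPM in the parental control and 290.2 and 249 in parental shTAF7, and at 329 and 389 in the LM2 control and 319 and 297 in LM2 shTAF7. Both knockdown libraries of each line lay below both of its controls, and the drop was deeper in MDA-MB-231, where 60.7% of the control level was left (log2 fold change -0.72 ± 0.08, edgeR adjusted p = 5.8e-10). The other helicases of the group, DDX10, DDX18 and DDX56, had log2 fold changes of -0.19, -0.08 and 0.04 in this line and were not called.

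The WD-repeat protein WDR43, part of the processome module that also aids transcription of ribosomal DNA, fell next. WDR43 had 191 and 193 CPM in the control and 141 and 126 in shTAF7 of MDA-MB-231, and in LM2 it had 151 and 160.0 in the control and 149.9 and 149.8 in shTAF7. Its MDA-MB-231 groups were well apart (-0.52 ± 0.07), and its LM2 groups, also without overlap, differed by -0.05, which was not called. HEATR1, a large scaffold of the same module, went from 107 and 105 to 82.7 and 79.0 CPM in MDA-MB-231, and from 62.2 and 75.1 to 78.9 and 74.3 CPM in LM2. Here too the parental groups did not overlap (-0.39 ± 0.08), whereas those of LM2 did (0.16 ± 0.08, not called). NOP14, which helps assemble the 40S precursor, had 72.9 and 68.8 CPM in the parental control and 56.3 and 47.6 in parental shTAF7, a fall of 0.45 ± 0.08 on the log2 scale. UTP20, a late processome scaffold, went from 127 and 123 to 97.7 and 86.0 CPM (-0.45 ± 0.07). NOLC1, a phosphoprotein that carries snoRNPs through the nucleolus, went from 429.9 and 448 to 353 and 343 CPM (-0.34 ± 0.07). For WDR43, HEATR1, NOP14, UTP20 and NOLC1, edgeR adjusted p-values in MDA-MB-231 ran from 1.4e-07 to 1.7e-04.

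The remaining 6 falls in MDA-MB-231 were small. They were the processome proteins UTP4 (-0.22) and UTP15 (-0.21), the 40S maturation and export factors PNO1 (-0.22), TSR1 (-0.22) and RRP12 (-0.20), and the pseudouridine synthase DKC1 (-0.21). The processome members not called were BYSL (-0.20), RCL1 (-0.16), RRP9 (-0.07) and WDR75 (-0.05).

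The 3 genes that rose in MDA-MB-231 were also called higher in LM2, a share of the members (7.50%) near that of all genes called higher in both lines (6.17%). NOP10, the smallest H/ACA protein, had 116 and 113 CPM in the parental control, 139.8 and 139 in parental shTAF7, 113 and 100.02 in the LM2 control and 119 and 139 in LM2 shTAF7. LTV1, an adaptor for 40S export, went from 36.4 and 34.8 to 39.9 and 45.5 CPM in the parental line and from 33.0 and 29.03 to 43.5 and 43.2 in LM2. Fibrillarin (FBL) went from 307 and 309 to 358 and 354 CPM in the parental line and from 348 and 327 to 416 and 446 in LM2. In both lines the shTAF7 libraries of these genes lay above the controls, by log2 fold changes of 0.29 ± 0.07, 0.27 ± 0.09 and 0.21 ± 0.07 in MDA-MB-231 and by 0.28 ± 0.07, 0.48 ± 0.09 and 0.35 ± 0.07 in LM2 for NOP10, LTV1 and FBL. Their edgeR adjusted p-values in MDA-MB-231 ran from 0.00246 to 0.0192.

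The calls in MDA-MB-231 rested partly on single libraries. Without control replicate 2, control replicate 3 or shTAF7 replicate 3, fewer members were called lower, fewer processome factors among them, and fewer were called higher. Fewer of all tested genes were also called in either direction in these fits, so the loss was not particular to the members. Of the 15 calls, 6 were made under all 15 alternative analyses, namely DDX21, WDR43, HEATR1, NOP14, UTP20 and NOLC1.

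**Figure D2:**
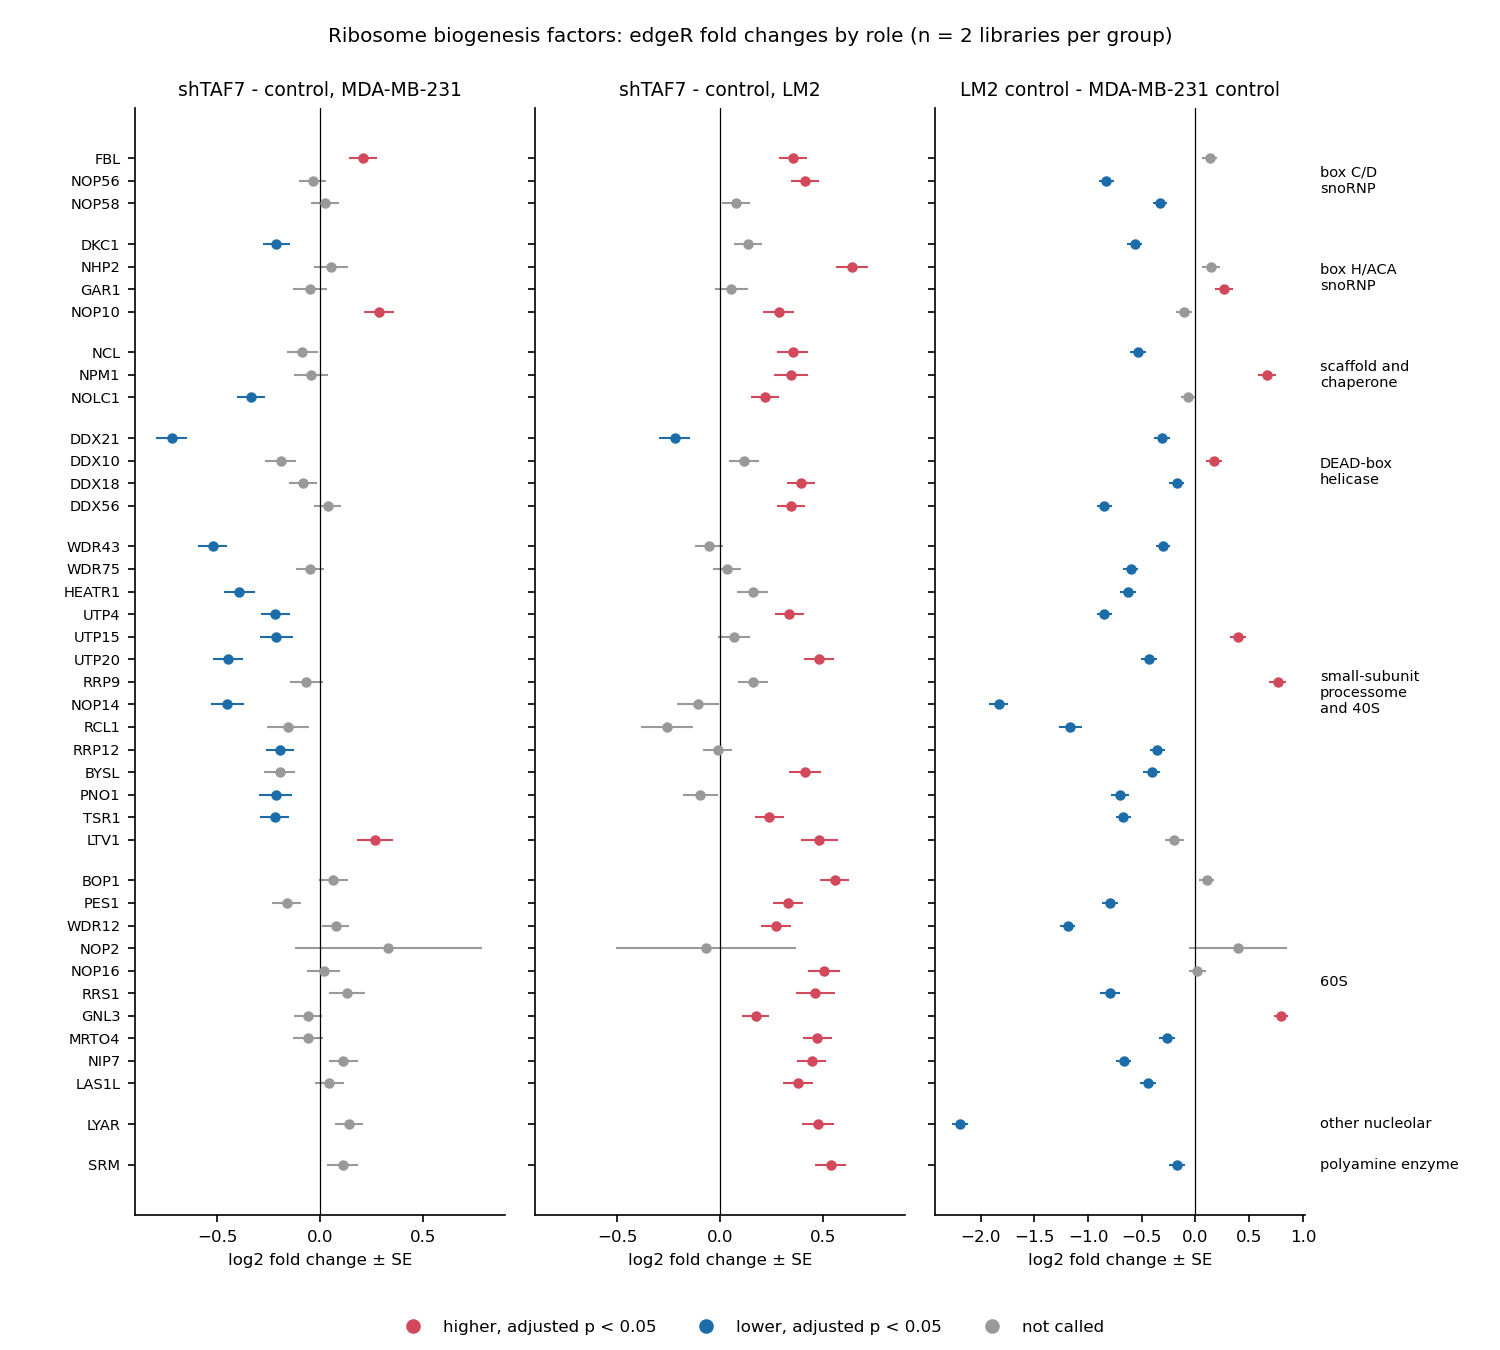
Log2 fold change ± SE (edgeR, n = 2 libraries per group) of the 40 factors, grouped by role from top to bottom, for shTAF7 against control in MDA-MB-231, for the same in LM2, and for LM2 control against MDA-MB-231 control; colours mark calls at adjusted p under 0.05 and the third panel has a wider axis. In the first panel 9 of 14 processome and 40S factors are called lower, and in the second 9 of 10 60S factors are called higher.

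In LM2 cells the same hairpin went with higher levels of most of the group. Of the 40 members, 25 rose (62.5%, against 21.8% of all genes), 1 fell (2.50%, against 19.4%) and 14 were not called, with a median log2 fold change of 0.31 (all genes -0.02). Rises covered 9 of 10 60S factors (median 0.41), all 3 scaffold and chaperone proteins (NCL 0.35, NPM1 0.34, NOLC1 0.22), 2 of 4 helicases (DDX18 0.39, DDX56 0.35) and 5 of 14 processome and 40S factors. With limma on log2 FPKM, which used no TMM scaling, 19 members rose and 4 fell, beside 1893 higher and 4014 lower genes in all (3478 and 3092 in the main analysis). In the same libraries 7 mesenchymal-like markers summed to 5159 to 5440 CPM, against 4045 to 4160 in the other 3 groups, and 7 luminal or epithelial markers to 93.0 to 104 CPM, against 49.4 to 51.4 in the LM2 control. The part of either list in the members' levels was not tested.

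The largest rise was that of NHP2, an H/ACA protein that anchors the guide RNA. NHP2 stood at 68.1 and 70.1 CPM in the LM2 control and 97.7 and 118 in LM2 shTAF7, and in the parental line at 67.0 and 57.7 in the control and 66.8 and 62.7 in shTAF7. Only in the LM2 pair were the libraries apart, with the knockdown 1.56-fold higher (log2 fold change 0.64 ± 0.08, edgeR adjusted p = 6.1e-09). The upstream bases of NHP2 printed above hold none of the 4 motifs. Of its partners in the H/ACA core, NOP10 rose in LM2 (0.28), while DKC1 (0.14) and GAR1 (0.05) were not called.

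BOP1 forms the PeBoW complex with PES1 and WDR12, which is needed for processing of large-subunit RNA. BOP1 had 142 and 142 CPM in the LM2 control and 199.8 and 218 in LM2 shTAF7 (0.56 ± 0.07), against 128 and 136 (control) and 132 and 144 (shTAF7) in the parental line, where libraries overlapped. PES1 (0.33) and WDR12 (0.27) rose with it in LM2. NOP16, another nucleolar 60S factor, went from 67.4 and 60.9 to 82.4 and 99.6 CPM in LM2 (0.51 ± 0.08), and from 63.6 and 63.2 to 61.8 and 66.5 CPM in the parental line (0.02, not called). MRTO4, a placeholder for the stalk protein of the large subunit, went from 90.7 and 86.9 to 115 and 132 CPM (0.47 ± 0.07), and from 105 and 109 to 103 and 102 CPM in the parental line (-0.06, not called). All LM2 knockdown libraries of these 60S genes lay above all LM2 controls. The other 60S factors that rose were RRS1 (0.46), NIP7 (0.45), LAS1L, an endonuclease of the internal spacer (0.38), and GNL3, the GTPase nucleostemin (0.17). NOP2, with its low counts, was the 60S factor not called.

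SRM makes spermidine, a polyamine that binds RNA and ribosomes. Its libraries stood at 89.0 and 93.1 CPM in the LM2 control and 119 and 145 in LM2 shTAF7 (0.54 ± 0.07), against 103 and 102 (control) and 109 and 111 (shTAF7) in the parental line (0.11, not called). LYAR went from 56.3 and 52.8 to 69.6 and 82.0 CPM in LM2 (0.48 ± 0.08), and from 249 and 249.996 to 271 and 279 CPM in the parental line (0.14, not called). For both genes the shTAF7 libraries lay above the controls in either line, and the parental differences were not called. UTP20 also rose, from 89.6 and 95.9 to 136 and 123 CPM (0.48 ± 0.07), which brought it to the level of the parental control. For NHP2, BOP1, SRM, NOP16, LTV1, UTP20, LYAR and MRTO4, the 8 largest changes in LM2, edgeR adjusted p-values ran from 6.1e-09 to 1.6e-05.

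DDX21 was the member that fell in LM2, though RCL1 had a lower estimate that was not called (-0.26 ± 0.13). The log2 fold change of DDX21 was -0.22 ± 0.08 (edgeR adjusted p = 0.0158). That call was lost without LM2 control replicate 3, the higher of its controls (-0.09), and without LM2 shTAF7 replicate 3 (-0.15). Of the 25 rises, 19 were called under all 15 alternatives and 23 to 27 members rose when single libraries were left out. The 6 rises lost under some alternative were NOP10, NOLC1, TSR1, PES1, WDR12 and GNL3.

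**Figure D3:**
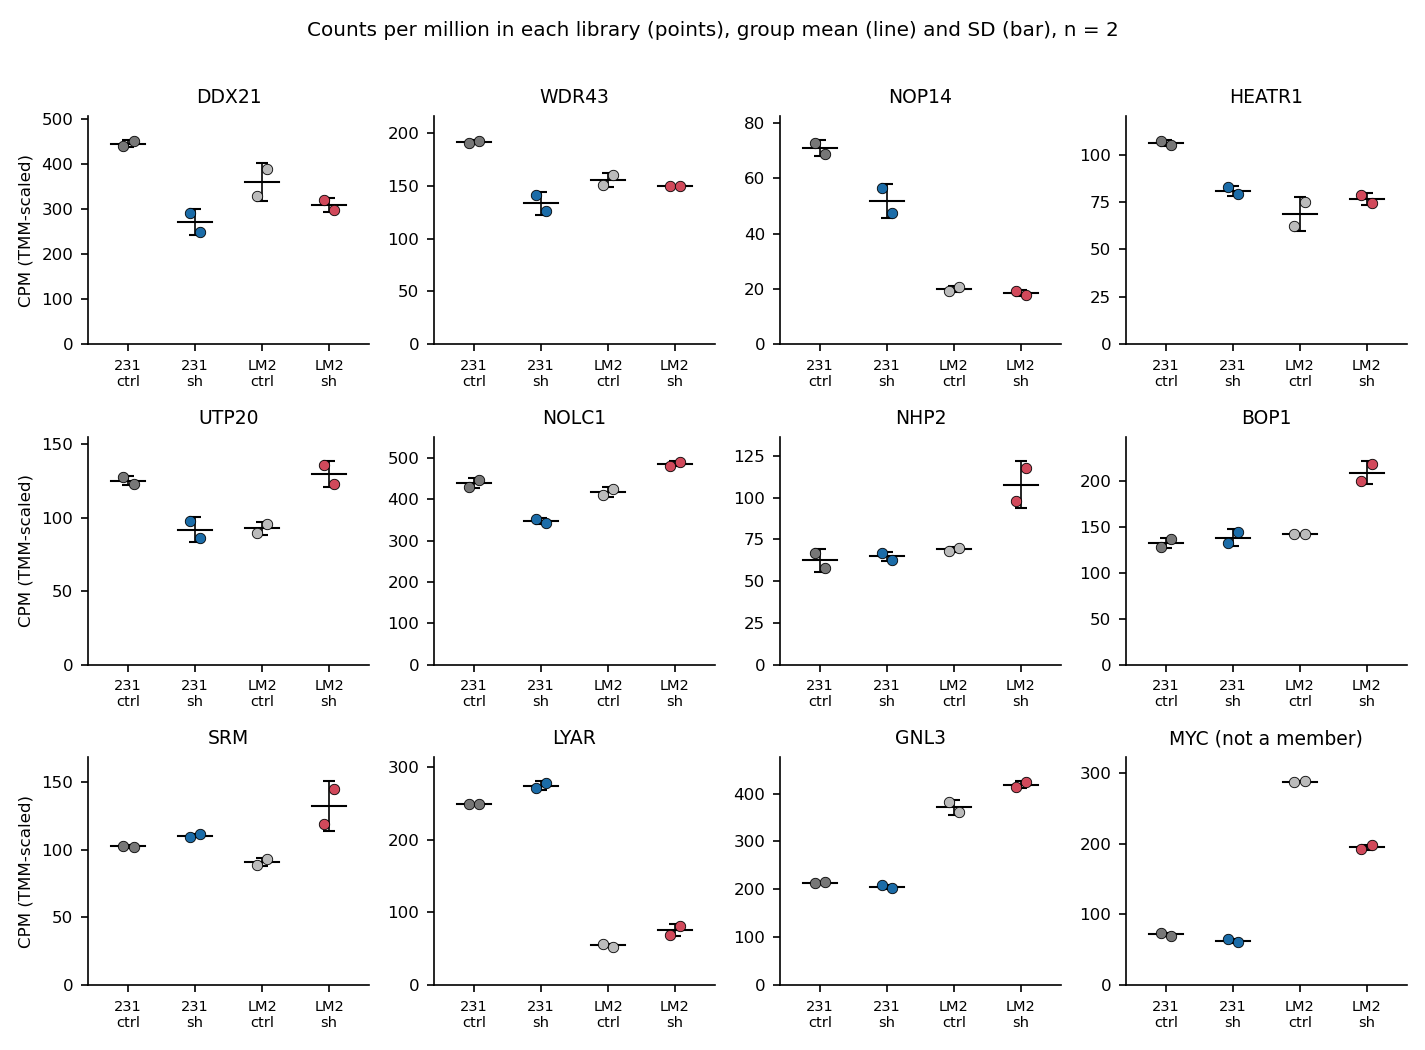
TMM-scaled CPM of 11 factors and MYC in each library (points), with the group mean (line) and SD (bar, n = 2), for MDA-MB-231 control and shTAF7 (231) and LM2 control and shTAF7; each axis starts at 0. DDX21, WDR43, NOP14 and HEATR1 drop in the second group, NHP2, BOP1 and SRM rise in the fourth, and LYAR is low and GNL3 high in both LM2 groups.

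The knockdown effect was set against the line in an interaction test, which asks whether the change in LM2 differs, in either direction, from that in MDA-MB-231. The difference was called above 0 for 26 members (65.0%, against 13.9% of all genes) and called below 0 for 0 (against 11.9%). By sign alone it was positive for 37 members and negative for 3, with a median of 0.34 (all genes -0.0026). The count called below 0 was also 0 at an unadjusted p under 0.05 and with DESeq2. Of the 26 calls 13 held under all 14 alternatives (BOP1, BYSL, DDX18, MRTO4, NCL, NHP2, NOLC1, NOP56, PES1, TSR1, UTP20, UTP4 and WDR43), and 12 were lost with limma on log2 FPKM. Leaving out single libraries left 19 to 27 calls. All 4 helicases and all 3 scaffold and chaperone proteins were among the 26, with 7 of 10 60S factors and 7 of 14 processome and 40S factors.

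UTP20 had the largest difference (0.93 ± 0.10, edgeR adjusted p = 1.0e-09), since it fell in MDA-MB-231 and rose in LM2. BYSL, a 40S assembly factor, went from 64.4 and 72.3 to 62.5 and 56.9 CPM in MDA-MB-231 and from 50.9 and 52.2 to 67.8 and 69.7 CPM in LM2, a difference of 0.61 ± 0.11. Its parental difference was not called (-0.20, edgeR adjusted p = 0.052). The U3-associated protein UTP4 moved from 194 and 189 to 174 and 156 CPM and from 108 and 105 to 129 and 139 CPM in the same order (0.55 ± 0.10). NOLC1 fell in the parental line and rose from 409 and 426 to 482 and 491 CPM in LM2 (0.56 ± 0.10). NHP2 (0.59 ± 0.11), HEATR1 (0.55 ± 0.11), MRTO4 (0.53 ± 0.10) and DDX21 (0.50 ± 0.11) completed the 8 largest differences. For DDX21 the positive sign means a smaller fall in LM2. Adjusted p-values of these 8 ran from 1.0e-09 to 3.1e-04 (edgeR), and of these 8, HEATR1 and DDX21 were among the calls lost with limma on log2 FPKM.

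The 2 knockdown comparisons share no library, so their calls can be cross-tabulated. Lower in MDA-MB-231 and higher in LM2 were 4 of 40 members (10.0%, against 1.97% of all genes), NOLC1, TSR1, UTP20 and UTP4. Higher in LM2 without a call in MDA-MB-231 were 18 (45.0%, against 13.7% of all genes), and lower in MDA-MB-231 without a call in LM2 were 7 (17.5%, against 6.85%). Higher in both were 3 (7.50%, against 6.17%) and lower in both was DDX21 (2.50%, against 4.11%), shares near those of all genes. The remaining 7 (DDX10, GAR1, NOP2, NOP58, RCL1, RRP9 and WDR75) were called in neither line. Across the 40 genes, the log2 fold changes in the 2 lines had a Pearson r of 0.481, and 0.591 without NOP2, a description over genes that are not independent. Over all 15923 genes the r was 0.0359. That set was not matched to the members in count level, and its log2 fold changes in LM2 ran from -7.21 to 5.43, against -0.26 to 0.64 for the members. Among the members, DDX21, WDR43 and NOP14 were among the lowest in both lines, and LTV1, SRM and LYAR among the highest.

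**Figure D4:**
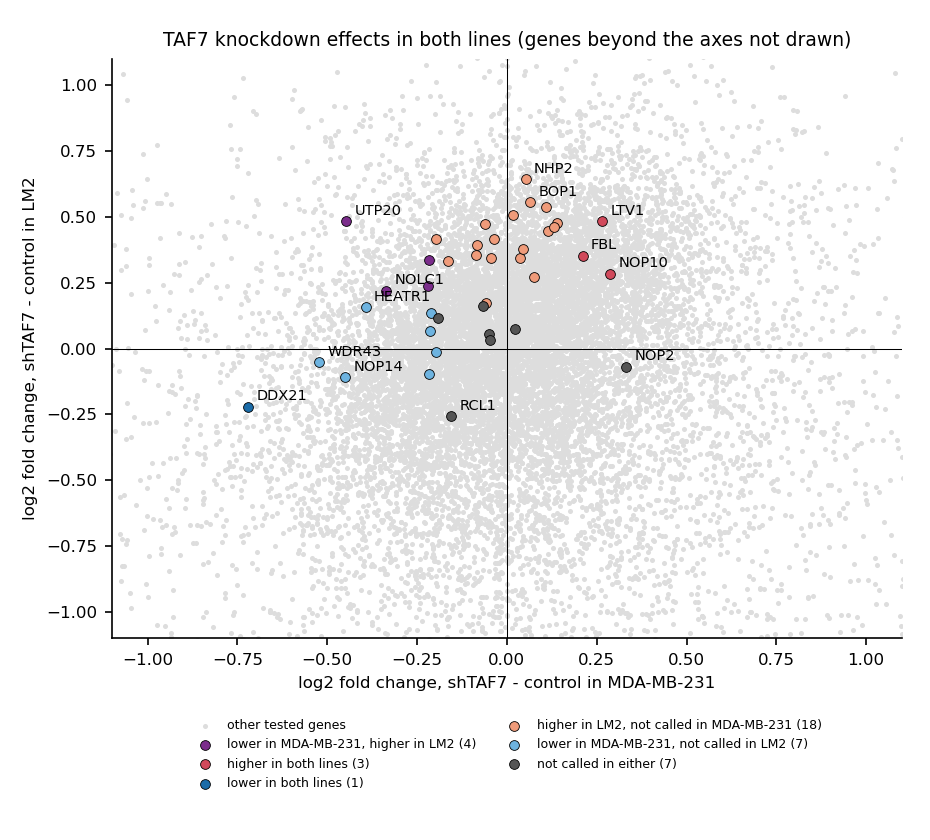
Log2 fold change of shTAF7 against control in MDA-MB-231 (horizontal) and in LM2 (vertical) for the 40 factors, coloured by their calls, over all other tested genes in grey. Most factors lie above the horizontal line, 4 lie in the quadrant lower in MDA-MB-231 and higher in LM2 with both calls, and DDX21 lies furthest to the left of the 40.

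Between the control lines, most of the group was lower in LM2. Of the 40 members, 26 were lower in the LM2 control than in the MDA-MB-231 control (65.0%, against 32.1% of all genes), 6 were higher (15.0%, against 32.2%) and 8 were not called, with a median of -0.34 (all genes 0.02). Of 14 processome and 40S factors 11 were lower, and of 10 60S factors 6 were lower. This comparison shares the LM2 controls with the LM2 knockdown comparison, so the direction of one is not independent of the other. It likewise shares the MDA-MB-231 controls with the MDA-MB-231 knockdown comparison, and both control groups with the interaction test.

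LYAR differed most, with both LM2 control libraries far below both parental ones at 21.8% of the parental level (-2.19 ± 0.08, edgeR adjusted p = 3.2e-29). NOP14 followed, at 19.0 and 20.7 CPM in the LM2 control and 19.3 and 17.7 in LM2 shTAF7, or 28.1% of the parental control (-1.83 ± 0.09). WDR12, of the PeBoW complex, had 152 and 148 CPM in the parental control and 66.3 and 65.4 in the LM2 control (-1.19 ± 0.07), and under shTAF7 158 and 158 in the parental line and 79.8 and 79.3 in LM2. RCL1, a processome protein linked to early cleavage, had 26.6 and 27.1 against 11.5 and 12.5 CPM (-1.16 ± 0.11), and under shTAF7 24.3 and 24.0 in the parental line and 9.49 and 10.6 in LM2. For each of these genes all 4 LM2 libraries lay below all 4 parental ones.

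Smaller differences of the same sign were found for DDX56, a helicase of 60S assembly (152 and 153 against 85.7 and 83.5 CPM, -0.85 ± 0.07), for UTP4 (-0.85 ± 0.07) and for NOP56, the C/D core protein (525 and 527 against 302 and 290.3 CPM, -0.83 ± 0.07). Under shTAF7 DDX56 had 156 and 157 CPM in the parental line and 105 and 109.9 in LM2, and NOP56 had 503 and 523 in the parental line and 384 and 405 in LM2. GNL3 went the other way. Its libraries had 213 and 215 CPM in the parental control, 208 and 202 in parental shTAF7, 382 and 360.5 in the LM2 control and 414 and 423 in LM2 shTAF7, so that both LM2 groups lay above both parental groups (LM2 control 1.74-fold the parental control, 0.80 ± 0.07). The other members higher in the LM2 control were RRP9, a protein of the U3 snoRNP (0.76), NPM1 (0.67), UTP15 (0.40), GAR1 (0.26) and DDX10 (0.17). Of the 26 lower calls 23 held under all 15 alternatives, and of the 6 higher calls 4 did (GNL3, NPM1, RRP9 and UTP15). Adjusted p-values of the 8 largest differences ran from 3.2e-29 to 6.0e-13 (edgeR).

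Together the 40 genes took 1.06% and 1.07% of all counts in the parental control and 0.990% and 0.986% in parental shTAF7. They took 1.08% and 1.037% in the LM2 control and 1.18% and 1.21% in LM2 shTAF7. NPM1 alone took 0.274% and 0.277% of the parental control and 0.466% and 0.426% of the LM2 control. Without NPM1 and NCL, the other 38 genes took 0.580% and 0.582% in the parental control against 0.462% and 0.467% in the LM2 control, so the total hid a lower share of the rest.

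**Figure D5:**
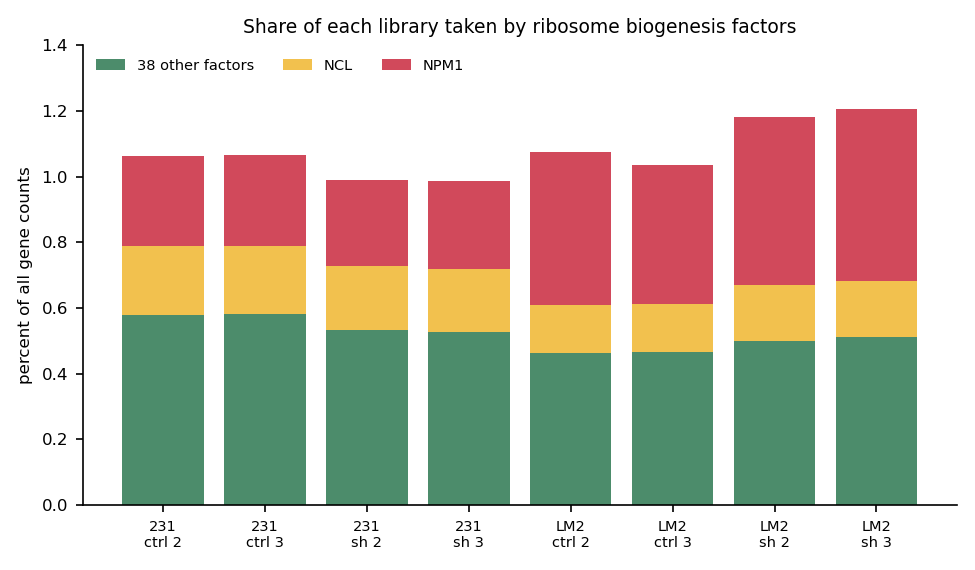
Percent of all gene counts in each of the 8 libraries taken by NPM1, by NCL and by the 38 other factors, stacked from 0. The 38 other factors take the largest share in the parental control and the smallest in the LM2 control, and NPM1 is larger in all LM2 libraries than in all parental ones.

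A wider list of 106 other ribosome biogenesis factors, of which 105 were tested, was counted in the same way. In MDA-MB-231 shTAF7, 14 rose (13.3%, near the 12.6% of all genes), 25 fell (23.8%, against 12.9%) and 66 were not called (median -0.03). The largest falls were those of NOP9, an RNA-binding 40S factor (-0.67 ± 0.12), WDR36, a processome protein (-0.50 ± 0.07), and RRP1B (-0.48 ± 0.08), and the largest rises those of the methyltransferase cofactor TRMT112 (0.52 ± 0.07), NOP53 (0.46 ± 0.07) and the exosome subunit EXOSC4 (0.43 ± 0.13), whose call was lost without MDA-MB-231 control replicate 2, control replicate 3 or shTAF7 replicate 3 (edgeR adjusted p = 0.0994, 0.052 and 0.0827) and with offsets for GC content and length (0.17). In LM2 shTAF7, 55 rose (52.4%, against 21.8% of all genes), 6 fell (5.71%, against 19.4%) and 44 were not called (median 0.20). IMP3, a U3 snoRNP protein, rose 2.01-fold (1.01 ± 0.10), followed by PA2G4 (0.76 ± 0.07) and the helicase DDX54 (0.63 ± 0.07), while UTP25 (-0.54 ± 0.08), NOC3L (-0.50 ± 0.07) and NVL (-0.39 ± 0.08) fell. Between controls, 12 were higher (11.4%, against 32.2% of all genes) and 69 lower (65.7%, against 32.1%) in LM2 (median -0.42). RPF1 (-1.43 ± 0.07), WDR3 (-1.38 ± 0.07) and FTSJ3 (-1.29 ± 0.07) were lowest, and NOP53 (0.69 ± 0.07), NMD3 (0.52 ± 0.07) and NVL (0.48 ± 0.08) highest. The difference between the knockdown effects was called above 0 for 45 (42.9%, against 13.9% of all genes) and called below 0 for 3 (2.86%, against 11.9%). By sign alone it was positive for 91 and negative for 14.

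MYC, no member itself, did not move with the group in LM2. It stood at 73.5 and 69.9 CPM in the parental control, 64.8 and 60.9 in parental shTAF7, 288 and 288 in the LM2 control and 192 and 198 in LM2 shTAF7. MYC was 4.02-fold higher in the LM2 control than in the parental control (2.01 ± 0.07) and fell with knockdown in LM2 (-0.56 ± 0.07), the comparison in which 25 members rose. In MDA-MB-231 it fell slightly (-0.19 ± 0.07, edgeR adjusted p = 0.0484), a call lost without control replicate 2 (adjusted p = 0.358), without control replicate 3 (0.125), without shTAF7 replicate 3 (0.293), without LM2 control replicate 2 (0.0559) and without the low-count filter (0.119). The difference between the lines was -0.37 ± 0.10 (edgeR adjusted p = 0.00343), and leaving out parental control replicate 3 ended that call (edgeR adjusted p = 0.0718). The part of MYC in the members' levels was not tested.

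The genes outside the group whose log2 CPM followed the members' mean most closely over the 8 libraries were RBMX, an RNA-binding splicing regulator (Pearson r 0.997), CLSPN, the checkpoint adaptor claspin (0.992), PGRMC1 (0.990), the GTPase DRG1 (0.988) and PIP4K2B (0.988). The 8 points fall into 4 groups, so these values mostly restate the order of the group means.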

How the data were processed

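RNA-seq libraries were prepared after mRNA enrichment from 1.3 ug of total RNA, per the labels' protocols. The deposited count table holds whole-number read counts per gene, and the authors' second table holds FPKM. For 1706 genes with at least 20 FPKM in every library, counts divided by FPKM scaled with library totals to within 0.0256%. STAR 2.7.10a and the genome build hg19 stand in the submitters' processing notes with no step assigned. The counting program, its strand setting and its gene models: not given in the sources used here. Value columns matching no sample numbered 0.

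Counts were filtered with filterByExpr (15923 genes left), scaled with TMM and fitted with edgeR 4.0.16 (R 4.3.3), a quasi-likelihood model with a mean per group over all 8 libraries and 4 residual degrees of freedom. P-values were adjusted by Benjamini-Hochberg over all genes. CPM use TMM-scaled totals. Alternatives were RLE factors, DESeq2 1.42.0, no filter, only the 4 libraries compared, the replicate number as a block, limma-trend (limma 3.58.1) on log2 FPKM with a pseudocount of 1, offsets for length (count over FPKM) and GC content (GENCODE release 29 transcripts), and each library left out. The steps were tested on simulated data. Libraries of 1 group differed by more than sampling noise.

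The members, gene lists, tests and the rule for named genes were chosen with earlier results of these data known. The rule names every member by role, the 8 called members with the largest change per comparison in full, TAF7, MYC, up to 3 other biogenesis factors per direction and comparison, and the 5 genes most like the members' mean. RefSeq promoter entries matched 34 members, and sequence on chromosome 8 was not used.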

Additional observations from a re-analysis of the deposited data

Results flagged for a closer look

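The effect of the TAF7 hairpin differed between LM2 and MDA-MB-231 for 26 of the 40 members by edgeR's interaction test, each with a change in LM2 above that in MDA-MB-231. Of these 26 calls, 13 held under all 14 alternatives, and NOP14 lost its call in 8 of them, RRS1 in 7 and DDX10 in 5. The value given for each gene is the LM2 minus MDA-MB-231 difference between log2 fold changes. Among genes that fell in MDA-MB-231 and rose in LM2 they were UTP20 (0.93), NOLC1 (0.56), UTP4 (0.55) and TSR1 (0.46). Among genes that rose in LM2 with no call in MDA-MB-231 they were BYSL (0.61), NHP2 (0.59), MRTO4 (0.53), PES1 (0.49), BOP1 (0.49), NOP16 (0.49), DDX18 (0.48), NOP56 (0.45), NCL (0.44), SRM (0.43), NPM1 (0.39), LYAR (0.34), RRS1 (0.33), LAS1L (0.33), NIP7 (0.33) and DDX56 (0.31). The others were HEATR1 (0.55), DDX21 (0.50), WDR43 (0.47), DKC1 (0.35), NOP14 (0.34) and DDX10 (0.31), of which DDX21 fell in both lines and less in LM2.

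Outside the members, the same test singled out TAF7 (0.34), which fell less in LM2, and MYC (-0.37), which fell more there. Of the wider list of biogenesis factors it picked DDX54 (0.78), NOM1 (0.74) and URB2 (0.73) on the positive side and NOP53 (-0.34), NOC3L (-0.34) and NVL (-0.32) on the negative side. These 3 negative differences, and that of TAF7, lost their calls when some single libraries were left out: NOP53 without MDA-MB-231 control replicate 2 or 3 or LM2 shTAF7 replicate 2, NOC3L in 5 such fits, NVL in 5, and TAF7 without MDA-MB-231 control replicate 3 (edgeR adjusted p = 0.0513). TAF7 itself fell to 58.5% of control in MDA-MB-231 and to 74.2% in LM2, and whether the depth of knockdown had a part in the difference was not tested.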

How the results depend on the processing

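Of the members' calls in each comparison, none changed sign under any of the alternatives. In MDA-MB-231 the count of falls, 12, ran from 6 to 15 and that of rises, 3, from 0 to 3 when single libraries were left out, and the median (-0.06) from -0.10 without shTAF7 replicate 2 to -0.048 without shTAF7 replicate 3. In LM2 the median (0.31) was 0.17 and the falls numbered 4 with limma on log2(FPKM + 1), and falls ran from 0 to 1 with libraries left out. Between controls the median (-0.34) was -0.30 with limma on FPKM and ran from -0.40 (without LM2 control replicate 3) to -0.35 with libraries left out. For the difference between knockdown effects, 14 members were called with limma on FPKM in place of 26 and the median (0.34) was 0.22, with all-gene calls of 998 higher and 2096 lower (2221 and 1892 in the main analysis). With libraries left out, 19 to 27 members were called and the median ran from 0.32 to 0.44. The limma medians over all genes were -0.07 in LM2 and -0.06 for the difference, and the cause of the shift was not tested. Offsets for GC content and length gave 2 rises and 12 falls for MDA-MB-231 knockdown, 28 rises and 1 fall for LM2 knockdown, 5 higher and 26 lower members for the controls, and 28 members for the difference. With the replicate block, MDA-MB-231 knockdown gave 3 rises and 11 falls (UTP15 lost its call, and MYC did with an adjusted p of 0.0596), LM2 knockdown 25 rises and 1 fall, the controls 6 higher and 27 lower members, and the difference 26 members. Same-numbered libraries did not deviate together (correlations from -0.06 to 0.02), so the numbers were not treated as pairs. Counting each call of a member once per alternative, MDA-MB-231 knockdown kept 184 and lost 41, LM2 knockdown kept 374 and lost 16, the controls kept 455 and lost 25, and the difference kept 327 and lost 37. Of those of TAF7, MYC and the other named factors, 429 were kept and 28 lost. A fit on only 4 libraries cannot give the difference between effects and was not made there. A library left alone in its group was assumed to vary like the other groups.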
